A study of Mus musculus with 3 samples.

Results

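The DEAD- and DEAH-box RNA helicases were described in chromatin-associated RNA of macrophages. They were taken as the genes that have a transcript of the class protein_coding and a symbol that starts with Ddx or Dhx followed by a digit. Ddx58, Dhx58 and Ddx3y were left out. The rule gave 50 genes, 35 named Ddx and 15 named Dhx, out of 21901 genes with a protein_coding transcript and 55536 genes in all. The data were 3 libraries of ribosomal RNA-depleted total RNA from the chromatin fraction of bone marrow-derived macrophages (BMDM) of C57BL/6J mice. All of the cells had received Lipid A, the membrane anchor of bacterial lipopolysaccharide and the ligand of the receptor TLR4, at 100 ng/ml for 50 min. No genetic change was labelled, and age and sex were not given. The libraries formed 1 group, and the labels gave 1 donor code to all of them, so spreads between libraries may be technical. Untreated cells were not analysed here, so no value below is a response to Lipid A.

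RNA helicases of these families bind RNA and use ATP to unwind short duplexes or to strip proteins from RNA. The DEAD-box proteins open duplexes locally and are named for the residues of a motif that binds and hydrolyses ATP, while DEAH-box proteins carry a variant of that motif and move along the RNA. Members act at nearly every step in the life of an RNA, from transcription and splicing to ribosome assembly, export, translation and decay. Some are also known in macrophages and other innate immune cells as sensors of viral RNA or as partners of the signalling that follows.

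The codons of the naming motif are shown for 7 members as examples of the motif and its variants. Each stretch comes from the longest GENCODE M21 coding sequence of the gene, 5′ to 3′, with the 4 codons of the motif in capitals.
Ddx5: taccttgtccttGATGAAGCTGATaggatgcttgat
Ddx3x: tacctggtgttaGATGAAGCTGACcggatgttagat
Ddx39b: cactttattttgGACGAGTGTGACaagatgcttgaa
Dhx15: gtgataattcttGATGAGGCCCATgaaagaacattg
Dhx40: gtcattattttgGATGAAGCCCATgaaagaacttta
Dhx9: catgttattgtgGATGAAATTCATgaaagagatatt
Ddx60: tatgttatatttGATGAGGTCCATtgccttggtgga
The capitals spell the DEAD box in Ddx5 and Ddx3x and the DEAH box in Dhx15 and Dhx40. In Ddx39b, Dhx9 and Ddx60 they spell the variants known as DECD, DEIH and DEVH. In-frame codons for the DEAD box were found in 27 of the 35 Ddx genes and 1 of the 15 Dhx genes, against 0.749% of all 21901 genes. Codons for the DEAH box were found in 8 of the 15 Dhx genes and 1 of the 35 Ddx genes, against 0.342% of all genes. The Ddx gene with DEAH codons was Ddx11, a DNA helicase that acts in sister chromatid cohesion. A search of this kind finds the letters anywhere in the reading frame and does not show that they form the motif.

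The gene tables held 10496703, 17687379 and 14806118 expected counts in replicates 1, 2 and 3, made from 1 µg, 250 ng and 500 ng of RNA per the labels. Genes with a protein_coding transcript took 22.3%, 16.4% and 20.4% of all TPM, a level per transcript length, in these libraries. All 10 macrophage markers of a fixed list were detected, including Csf1r and Adgre1. Of 5 markers each for fibroblasts, B cells and neutrophils none was detected, and the summed fibroblast level was 0.03, 0.91 and 0.88 TPM. Cd4 was the only 1 of 5 T cell markers detected, with Cd3d, Cd3e and Cd3g at 0. Of 5 endothelial markers Vwf, at 50.4 TPM, and Kdr, at 1.57 TPM, were detected, while Pecam1, at 0.26 TPM, and Cdh5, at 0.07 TPM, were not. These marker values come from the first quantification. A second quantification of the same libraries gave means of 18.0 TPM for Cd3d, 0.04 for Cd3e and 0.59 for Cd3g. There Pecam1 had 6.46 TPM and Cdh5 0.17 TPM. The B cell marker Ms4a1 had 2.63 TPM there, beside a median of 0.01 TPM over the 5 B cell markers. The level of some markers thus depends on the quantification. In bulk RNA, fewer cells of a type and less RNA per cell cannot be told apart.

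Of the 50 helicase genes, 48 were detected, that is, had at least 10 expected counts in each library. Among all genes with a protein_coding transcript 44.1% were detected. The members not detected were Ddx25, a testis helicase with 0 counts in every library, and Ddx43, a germline helicase with 0, 0 and 1 counts. A count of 0 allows up to 3 counts in a library, and this limit covers counting error only. The median member had 5.44 TPM in replicate 1, 5.84 in replicate 2 and 5.56 in replicate 3, a mean of 5.62 ± 0.20 (SD, n = 3). The median over the 9648 detected protein-coding genes was 4.83 ± 0.62 TPM (SD, n = 3). Over the 48 detected members alone, the median was 6.02 TPM. By either value the level of the median helicase gene lay near that of the median detected gene. The Ddx genes had a median of 4.95 TPM and the Dhx genes one of 7.22 TPM. Levels differed widely among members, with 18 above 10 TPM, 1 above 100 TPM and 11 below 2 TPM. Together they held 0.560%, 0.566% and 0.543% of the TPM of protein-coding genes.

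**Figure D1:**
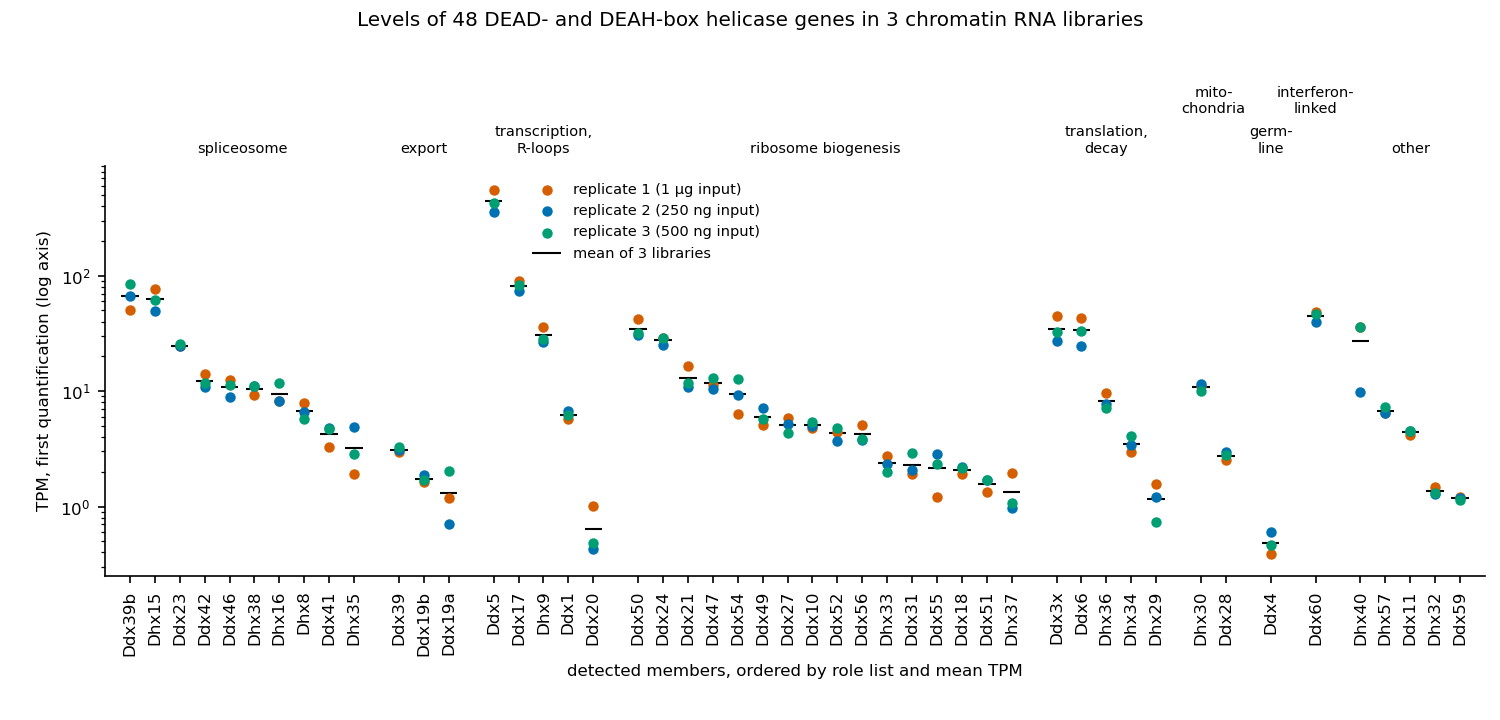
TPM of the 48 detected helicase genes in the first quantification on a log axis, grouped by role list, with 1 point per library and a bar at the mean. Ddx5 stands above every other member in all 3 libraries, and Ddx4 is the lowest.

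Helicases of transcription and RNA processing held the highest level. Ddx5 (chr11:106780355-106789185, minus strand, mm10), also called p68, is a coregulator of transcription and a cofactor of microRNA processing. It stood at 548, 353 and 429 TPM in replicates 1, 2 and 3, a mean of 444 ± 98.3 (SD, n = 3). It took 43.9%, 38.1% and 38.8% of the summed TPM of the family. Ddx17, its close paralog p72, stood at 89.3, 73.5 and 82.4 TPM, so that the mean of Ddx5 was 5.43 times that of Ddx17. Every library of Ddx5 lay above every library of Ddx17. Dhx9, known as RNA helicase A and for resolving RNA:DNA hybrids, had 36.3, 26.8 and 28.4 TPM. Ddx1, part of the tRNA ligase complex, had a mean of 6.26 ± 0.49 TPM (SD, n = 3). The lowest of this list was Ddx20, a component of the SMN complex that builds small nuclear ribonucleoproteins, at 1.02, 0.43 and 0.48 TPM. The median of the 5 genes was 30.5 TPM.

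All 10 spliceosomal helicases were detected, with a median of 10.8 TPM. Ddx39b, which acts in early spliceosome assembly and couples splicing to export, was the highest at 50.3, 66.7 and 84.6 TPM. Dhx15, which takes spent spliceosomes apart, followed at 76.3, 49.6 and 61.5 TPM. The libraries of these 2 genes overlap and give no order between them. Ddx23, which exchanges U1 for U6 at the 5′ splice site, had 24.4, 24.6 and 25.5 TPM. Ddx42 and Ddx46, which act with the U2 particle, had means of 12.2 ± 1.72 and 10.9 ± 1.81 TPM (SD, n = 3). The late-acting Dhx38, Dhx16 and Dhx8 had means of 10.5 ± 1.02, 9.39 ± 2.15 and 6.75 ± 1.11 TPM (SD, n = 3). Ddx41 had a mean of 4.24 ± 0.85 TPM (SD, n = 3). The lowest was Dhx35 at 1.92, 4.89 and 2.83 TPM.

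The 16 helicases of ribosome biogenesis were all detected at a lower median of 4.62 TPM. The highest was Ddx50, a nucleolar protein, at 41.9, 30.5 and 32.1 TPM. Its paralog Ddx21 lies next to it on chromosome 10 and had a mean of 13.0 ± 2.96 TPM (SD, n = 3). Each library of Ddx50 lay above each library of Ddx21. Ddx24 followed Ddx50 with 28.8, 24.9 and 29.0 TPM. The other members ranged from Ddx47 at 11.7 ± 1.31 TPM (SD, n = 3) down to Dhx37 at 1.96, 0.97 and 1.07 TPM. Dhx37 acts late in the assembly of the small ribosomal subunit.

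Helicases of translation and decay had a median of 8.20 TPM over 5 genes. Ddx3x, which helps initiation on structured messages and also serves innate immune signalling, had 44.8, 27.4 and 32.2 TPM. Ddx6, a partner of the decapping machinery in P-bodies, had 43.3, 24.7 and 33.4 TPM. Dhx36, which unwinds G-quadruplexes, had a mean of 8.20 ± 1.31 TPM, and Dhx34, a factor of nonsense-mediated decay, one of 3.49 ± 0.57 TPM (SD, n = 3). Dhx29, which assists scanning ribosomes, was the lowest at 1.56, 1.22 and 0.73 TPM. The helicases Dhx30 and Ddx28 of mitochondrial ribosome assembly had means of 10.8 ± 0.78 and 2.75 ± 0.23 TPM (SD, n = 3).

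Export helicases were low, with 3 of 4 detected. Ddx39, a paralog of Ddx39b, had 2.98, 3.08 and 3.27 TPM. Ddx19b and Ddx19a, neighbouring copies on chromosome 8 that release messages at the nuclear pore, had 1.74 ± 0.13 and 1.31 ± 0.68 TPM (SD, n = 3). Near-identical copies such as these can split or swap reads, so their separate values are uncertain. Ddx4, the germline helicase known as Vasa, was the lowest detected member at 0.39, 0.60 and 0.46 TPM, from 14, 40 and 22 counts. Among the less studied genes Dhx40 had 36.0, 9.74 and 36.2 TPM and Ddx59 1.22, 1.18 and 1.13 TPM. Dhx57, Ddx11 and Dhx32 had means of 6.74 ± 0.45, 4.40 ± 0.21 and 1.36 ± 0.12 TPM (SD, n = 3).

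Ddx60 (chr8:61928087-62038244, plus strand), an interferon-induced antiviral helicase, had 48.1, 39.5 and 47.0 TPM. This placed it at rank 5 of the 50 members. Over the whole order of mean levels, the libraries of a gene did not overlap those of the next gene for 7 of the 49 pairs of neighbours. Those 7 genes were Ddx5, Dhx15, Ddx23, Ddx10, Ddx39, Ddx18 and Ddx4. All other neighbours in the order overlapped.

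Related helicases outside the symbol rule were set beside the family. The DEAD-box translation factors Eif4a1 and Eif4a2 had 228 and 114 TPM, and Eif4a3, a core part of the exon junction complex, had 14.1 TPM. Only Ddx5 among the members exceeded Eif4a2. The Ski2-like helicases Ascc3, Mtrex, Skiv2l and Snrnp200 had 75.3, 35.3, 22.1 and 9.21 TPM. The splicing factors named Srsf and Hnrnp had a median of 38.5 TPM over 31 genes, and the initiation factors named Eif one of 6.07 TPM over 55 genes.

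The libraries were next compared for each member. Expected counts were scaled by TMM (trimmed mean of M-values) to CPM, a count scaled to the size of its library, in order to compare 1 gene between libraries, whereas TPM serves to compare genes. A member was called apart in a library when it lay at least 1.5-fold above or below the mean log2 level of the others. The comparison took genes whose counts averaged at least 10, which all 48 detected members passed. Of these, 29 stayed under 1.5-fold in every library and 19 were apart in at least 1. The share of all genes apart in at least 1 library was not computed, so the 19 cannot be set against it. Shares by library and direction are given below. Under this scaling by TMM, the steadiest members were among the most abundant. Ddx5 had 1358, 1382 and 1404 CPM, a spread of 1.03-fold, and Dhx15 had 182, 171 and 168 CPM, a spread of 1.08-fold. Spreads of single members under library totals were not computed, so which members are steadiest may change with the scaling.

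With TMM, replicate 1 was the low library for most members. It held the lowest value for 34 of 48 members (70.8%), against 48.6% of all 10301 genes tested. With library totals as the scaling, it was lowest for 20 members, against 28.1% of genes, and replicate 3 was lowest for another 20, against 32.5%. The median member lay 0.24 below its own mean on the log2 scale (-0.24) in replicate 1 and 0.25 above it in replicate 2, with 0.01 in replicate 3. Over all tested genes these medians were -0.07, 0.05 and 0.04. Relative to all genes the members stood at -0.16 in replicate 1, 0.19 in replicate 2 and -0.03 in replicate 3. With TMM, the median distance from the gene's own mean was -0.28, 0.23 and -0.03 for the 10 macrophage markers and -0.19, 0.24 and -0.05 for the 4 Ski2-like helicases. The members' differences from all genes are the same under each scaling. Scaling to library totals in place of TMM moved the median of all genes in replicate 1 from -0.07 to 0.14 and that of the members to -0.02, and it turned the members' median in replicate 3 to -0.09.

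In replicate 1, 15 of 48 members (31.2%) were at least 1.5-fold lower, against 21.7% of all tested genes, and 2 (4.17%) were higher, against 10.6%. With library totals the lower members numbered 5, against 9.31% of genes, and the higher ones 3, against 25.2%. In replicate 2, 9 members (18.8%) were higher, against 12% of genes, and 1 was lower, against 7.79%. Library totals left 3 higher members, against 6.09% of genes, and 1 lower, against 14%. In replicate 3, 2 members were higher, against 7.61%, and 0 were lower, against 4.54%. Between replicates 2 and 3 alone, 4 members differed by at least 1.5-fold, against 13.8% of genes. With TMM, most of the calls thus involved replicate 1.

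**Figure D2:**
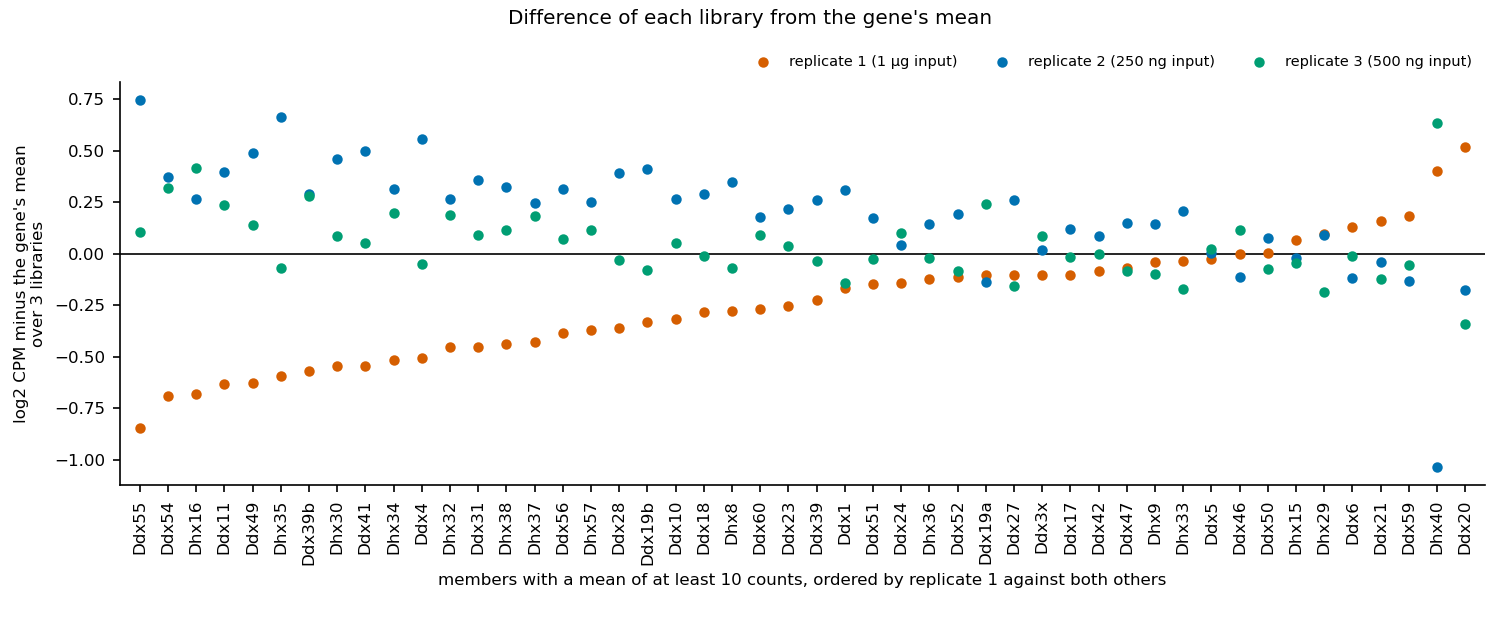
Log2 CPM of each library minus the gene's mean over 3 libraries, for the 48 detected members, ordered by replicate 1 against the others. With this TMM scaling replicate 1 lies below 0 for most members, and Dhx40 has the lowest point of all, in replicate 2.

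The largest difference in replicate 1 was that of Ddx55, a nucleolar helicase, with 44, 179 and 97 counts. This gave 3.61, 11.0 and 7.02 CPM, and replicate 1 was 1.27 below the others on the log2 scale (-1.27). Scaled by TMM, the counting intervals (95%, exact Poisson) of 2.62 to 4.84, 9.43 to 12.7 and 5.69 to 8.56 CPM do not overlap. Intervals of this kind cover counting error only and not the choice of scaling. The log2 difference of replicate 1 was -0.95 with library totals and -0.64 in the second quantification.

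Other members low in replicate 1 came from several role lists. Ddx54, a nucleolar helicase, had 20.7, 43.3 and 41.8 CPM. Dhx16, which activates the spliceosome, had 17.0, 32.8 and 36.3 CPM. Ddx39b had 86.2, 157 and 156 CPM. In all of these, replicate 1 lay below the other 2 libraries, which were close to each other. Ddx11 had 9.76, 19.9 and 17.8 CPM and Ddx49 had 5.90, 12.8 and 10.1 CPM. Dhx30 had 14.3, 28.8 and 22.1 CPM, and Ddx41 had 4.67, 9.69 and 7.09 CPM. For these genes replicate 1 was again the lowest, with replicate 3 between the others. Dhx35 had 6.48, 15.5 and 9.33 CPM and was 0.99 above the others in replicate 2 on the log2 scale. Ddx4 had 1.15, 2.45 and 1.59 CPM, with counting intervals for replicates 1 and 3 of 0.63 to 1.93 and 1.00 to 2.41 CPM that overlap. Ddx20 went the other way, with 2.79, 1.72 and 1.52 CPM and replicate 1 highest, from 34, 28 and 21 counts. By list and with TMM, 5 of 10 spliceosomal, 5 of 16 ribosome biogenesis and 0 of 5 transcription helicases were at least 1.5-fold lower in replicate 1, beside the 21.7% of all tested genes, and the lists were not tested against each other. With library totals 5 members in all were lower, as given above. Ddx39b, Dhx30 and Ddx41 fell under 1.5-fold with library totals, at -0.53, -0.50 and -0.50. In the second quantification, Ddx49, Ddx4, Dhx30 and Ddx20 fell under it, at -0.43, 0.51, -0.46 and 0.27.

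The GC content of the main coding transcript moved with the difference of replicate 1. The 15 members lower in replicate 1 had a median GC content of 54.1%, and the other 33 had one of 47.3%. Across the 48 members the rank correlation (Spearman) of GC content with the log2 difference of replicate 1 from the others was -0.62. Across all 10301 genes it was -0.43, and the medians were 54.7% for genes lower in replicate 1 and 48.6% for the rest. Transcript length and gene span gave correlations of 0.24 and 0.10 over the members. These are correlations across genes that share the same libraries, and genes are not independent replicates. RNA input and library cannot be told apart here, and the part of GC content in the library differences was not tested. The main coding transcript can be a short model, as for Dhx30, where it has 368 bases.

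**Figure D3:**
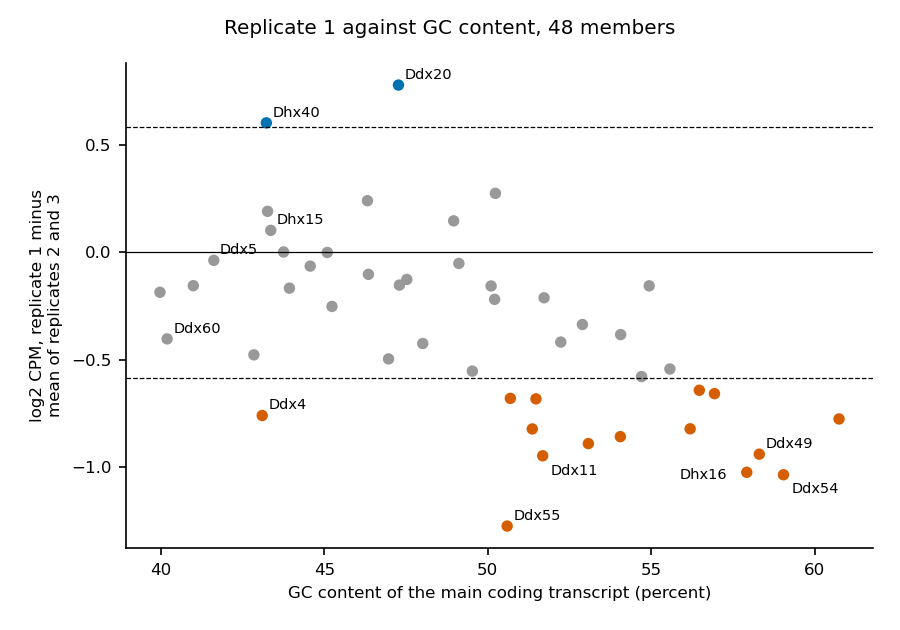
Log2 CPM of replicate 1 minus the mean of replicates 2 and 3 against GC content in percent, for 48 members, with dashed lines at 1.5-fold. Orange points are lower and blue points higher in replicate 1, and the orange points lie mostly above 50% GC.

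Dhx40 (chr11:86768846-86807746, minus strand), a DEAH-box helicase of little known function, was the member furthest apart. Its counts were 1417, 700 and 1884, which gave 116, 42.9 and 136 CPM. Counting intervals (95%, exact Poisson) were 110 to 122, 39.8 to 46.2 and 130 to 143 CPM. Replicate 2 was 2.93-fold lower than the others, -1.55 on the log2 scale. There 8 of the 48 members lay below their own mean, against 4396 of all 10301 genes. Dhx40 was the only member at least 1.5-fold lower in replicate 2. In the order of all 10301 genes, with the lowest replicate 2 first, Dhx40 held rank 62. Among the 4512 genes with a mean of at least 200 counts it held rank 13. Its calls in replicates 1 and 3, 0.60 and 0.95 above the others, follow from the low value in replicate 2. The main coding transcript Dhx40-201 had 28.9, 7.35 and 29.9 TPM and the processed transcript Dhx40-203 had 6.33, 1.79 and 6.31 TPM. Both transcripts were thus low in replicate 2 in like measure. The second quantification gave the gene 71.4, 23.6 and 70.4 TPM.

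Genes on the same stretch of chromosome 11 were looked at after the value of Dhx40 had been seen. Cltc, the clathrin heavy chain gene on the same strand, was 0.41 above the others in replicate 2 on the log2 scale. Ypel2 was at -0.10 and Vmp1 at -0.04. These 3 genes thus did not share the low replicate 2. Ptrh2 was at -0.70, with 18.0, 7.97 and 9.26 CPM, and replicate 1 stood above the other libraries there.

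Interferon-stimulated genes were set beside Dhx40 and Ddx60 from a list of 16. Their median lay at 0.11, -0.60 and 0.48 from the mean in replicates 1, 2 and 3, and 11 of 16 were at least 1.5-fold lower in replicate 2, against the 7.79% of all genes given above. Rsad2 had 1374, 294 and 1415 CPM, Ifit1 had 92.2, 20.2 and 105 CPM, and Ifih1, itself an RNA helicase that senses viral RNA, had 991, 231 and 839 CPM. The low library was again replicate 2. Of the 16 genes, 7 were at least as low there as Dhx40. Stat2, Irf7, Mx1 and Usp18 were among those not lower in replicate 2, with log2 differences from 0.12 (Stat2) to 0.23 (Irf7).

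Ddx60 did not share the low value in replicate 2. It had 233, 318 and 299 CPM from 2845, 5186 and 4128 counts, with replicate 1 lowest. Replicate 2 was 0.27 above the others on the log2 scale. Among genes whose products answer interferon, Ddx60 thus lay with Stat2 and Mx1 and away from Rsad2, Ifit1 and Cxcl10 in this measure. Whether the interferon-stimulated genes and Dhx40 share a cause was not tested.

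**Figure D4:**
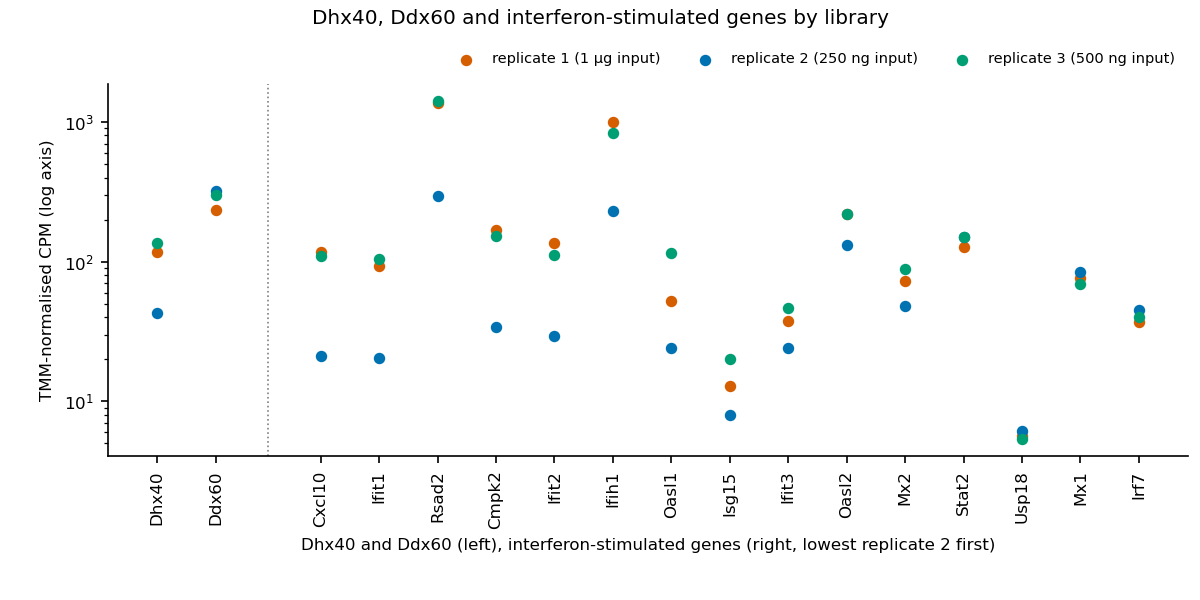
TMM-normalised CPM on a log axis for Dhx40 and Ddx60 (left of the dotted line) and 15 of the 16 interferon-stimulated genes (right), with 1 point per library. Replicate 2 is the lowest point for Dhx40 and for the genes from Cxcl10 to Mx2, and the highest for Ddx60.

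The promoter of Ddx60 is shown because it holds a motif of interferon response. The 100 bases before the start (chr8:61927987-61928086, plus strand, RefSeq, GRCm38.p6) have matches to GAAANNGAAA in capitals.
Ddx60: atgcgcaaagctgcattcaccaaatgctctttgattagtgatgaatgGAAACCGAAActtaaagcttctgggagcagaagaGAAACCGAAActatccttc
The matches begin 53 and 19 bases before the start. This motif, searched on both strands, was found in 2.98% of 32851 RefSeq windows of the 250 bases before a start, and in 0.18% at least 2 times. Of the 45 members with such a window, 2 held it, Ddx60 with 2 matches and Ddx49 with 1. Ddx11, Ddx23, Ddx39, Ddx6 and Dhx38 had no entry. A match is a description of the letters and not of binding.

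Chromatin RNA holds molecules that are not fully spliced, and annotated transcripts that keep introns can take up their reads. For each gene the share of TPM in transcripts of a class other than protein_coding was computed. The median share over the 48 detected members was 50.5%, 38.8% and 43.8% in replicates 1, 2 and 3. The median of the members' mean shares was 43.4%, beside 40.4% over all detected protein-coding genes. In 21 members (43.8%) these transcripts held over 50%, against 39.1% of all detected genes. When the share was taken of expected counts, which gives short transcripts less weight, 11 members passed, against 23.8% of genes. The shares of the members lay near the background on either scale. In the second quantification 27 members passed, and 20 passed in both quantifications.

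Over 50% was reached by 10 of 16 ribosome biogenesis helicases and 4 of 10 spliceosomal ones, beside the 39.1% of all detected genes, and the lists were not tested against each other. Ddx24, Dhx33 and Ddx55, at 51.0%, 50.7% and 50.5%, lay just above that line. Ddx39 had 74.2%, 84.7% and 81.7% and Ddx54 had 74.6%, 77.8% and 78.0% in such transcripts. In Ddx50 the share was 76.2%, 72.1% and 70.8%, and in Ddx47 64.4%, 71.9% and 78.5%. These genes were high in every library. Ddx49, at 85.4%, 75.0% and 58.2%, and Ddx11, at 82.5%, 67.5% and 60.8%, varied more. Dhx15 had 73.7%, 68.4% and 67.1%. At the other end, Ddx60 had 18.9%, 12.01% and 9.56% and Dhx40 had 19.5%, 23.6% and 17.4%. Ddx17, Ddx10, Ddx19b, Ddx28 and Ddx4 were at 0%, since the annotation gives them no transcript of another class. A share therefore depends on which transcripts the annotation holds.

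**Figure D5:**
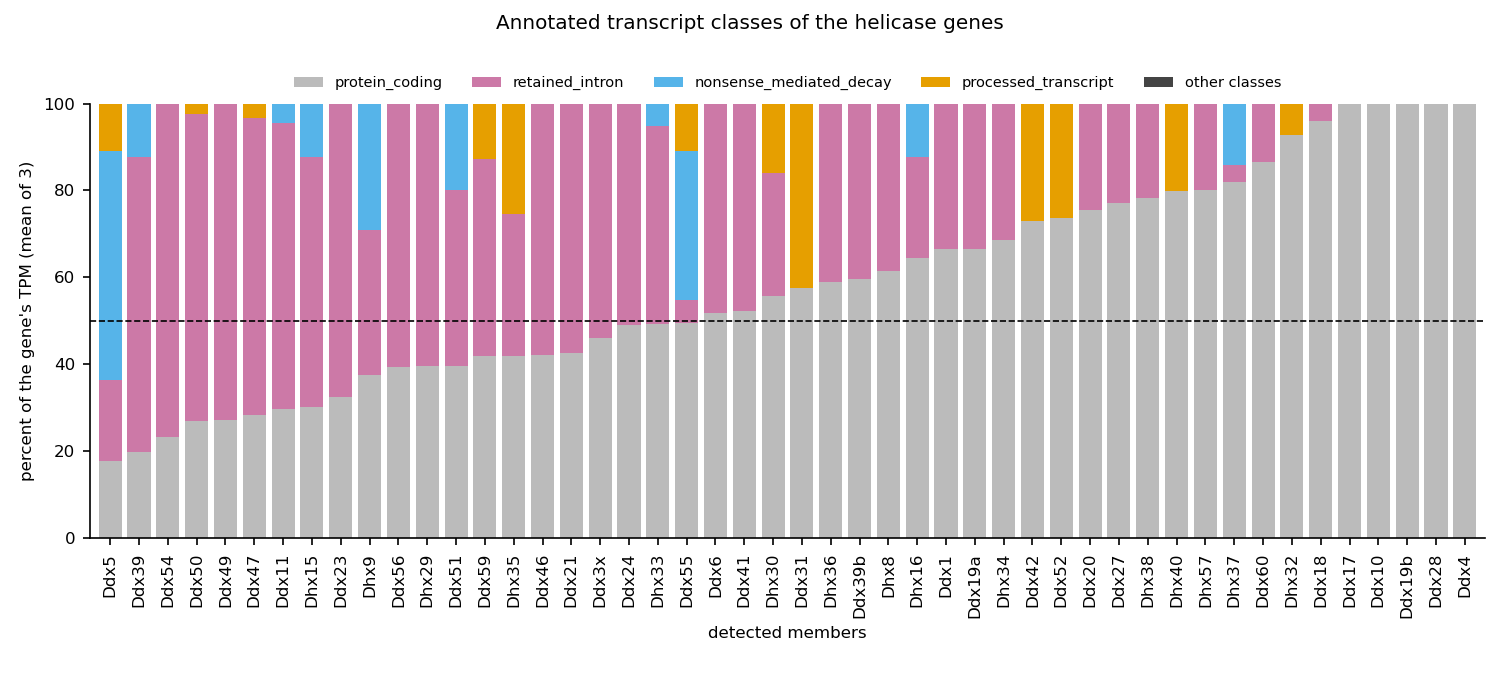
Percent of each gene's TPM in each annotated transcript class, as the mean of 3 libraries, for the 48 detected members, with a dashed line at 50%. By these means the gray protein_coding part is smallest in Ddx5 and fills the bar for the 5 members with no transcript of another class.

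Ddx5 had 83.0%, 84.4% and 79.2% in such transcripts, and its mean of 82.2% ± 2.7 (SD, n = 3) was the highest by a small margin. In single libraries Ddx49 (replicate 1) or Ddx39 (replicates 2 and 3) was higher. In the second quantification Ddx5 had 77.8%, below Dhx35, Dhx29, Dhx16, Ddx54 and Ddx47. Its most abundant transcript was Ddx5-208, of the nonsense_mediated_decay class, at 249, 200 and 243 TPM. The retained_intron transcript Ddx5-202 had 154, 52.3 and 54.0 TPM, and the full coding transcript Ddx5-201 had 90.2, 45.6 and 75.8 TPM. Ddx5-208 thus lay above the coding transcript in every library. Against Ddx5-201, Ddx5-208 keeps intron 11 of 12 (chr11:106782694-106783958, minus strand, 1265 bases) and Ddx5-202 keeps intron 10 (chr11:106784019-106784100, 82 bases). The second quantification gave a mean of 222 TPM to Ddx5-208 and 59.1 TPM to Ddx5-201.

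These introns are printed from the GENCODE M21 transcripts that keep them. They set the 2 most abundant Ddx5 transcripts outside the protein_coding class apart from its coding transcript. Intron letters are in lower case and 10 exon bases on each side are in capitals.
Ddx5 intron 10, whole: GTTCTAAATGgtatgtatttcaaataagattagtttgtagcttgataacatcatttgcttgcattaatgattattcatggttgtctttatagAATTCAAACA
Ddx5 intron 11, first 30 bases: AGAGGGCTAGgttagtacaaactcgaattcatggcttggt
Ddx5 intron 11, last 30 bases: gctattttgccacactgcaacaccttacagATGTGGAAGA
Intron 10 starts with gt and ends with ag, as does intron 11. The end of intron 11 lies within Mir3064 (chr11:106782693-106782759, minus strand), a microRNA gene inside Ddx5. The mature sequences are shown with the seed (bases 2 to 8) in capitals, from RefSeq (GRCm38.p6).
mmu-miR-3064-5p: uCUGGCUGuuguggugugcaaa
mmu-miR-3064-3p: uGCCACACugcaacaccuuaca
The 3p sequence (chr11:106782695-106782716) falls inside intron 11 and ends 1 base before its acceptor end. Mir3064 had 0 counts in all 3 libraries.

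Among all members, 48 introns of a main coding transcript were kept whole by a transcript of another class, in 21 genes and 50 pairs of transcript and intron. All 50 start with GT and end with AG, and they run from 77 to 2705 bases. Dhx15-204, the most abundant transcript of Dhx15 at 25.03, 14.08 and 18.66 TPM, keeps intron 9 (chr5:52160422-52160892, 471 bases). Dhx9-209 keeps intron 17 (142 bases) and had 9.62, 8.38 and 8.02 TPM. In Ddx3x, the retained_intron transcripts Ddx3x-204, Ddx3x-202 and Ddx3x-203 keep introns 5, 8 and 11. Ddx3x-204 had 10.3, 4.31 and 3.52 TPM, Ddx3x-202 had 9.53, 3.69 and 3.27 TPM and Ddx3x-203 had 9.04, 6.35 and 7.59 TPM. All were highest in replicate 1 in TPM, as was the whole gene at 44.8, 27.4 and 32.2 TPM. By TMM-scaled CPM, the scale used between libraries, the whole gene had 97.5, 106 and 111, with replicate 1 lowest. Within the gene, transcripts outside the protein_coding class held 64.6%, 52.4% and 44.6% of its TPM, with replicate 1 highest. CPM of single transcripts was not computed, so a rise of these transcripts in replicate 1 was not tested. The short intron 5 of Ddx3x (chrX:13287384-13287463, plus strand, 80 bases) is shown beside intron 10 of Ddx5 as a second intron of this size.
Ddx3x intron 5, whole: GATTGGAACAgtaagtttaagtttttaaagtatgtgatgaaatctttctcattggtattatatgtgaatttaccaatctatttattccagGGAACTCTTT
These levels belong to whole transcripts, so reads within the intron alone were not measured.

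The same libraries had been quantified in another format, and the ratio of mean TPM (with 0.1 added) of the second over the first quantification was taken. Of the 48 detected members 26 (54.2%) were at least 1.5-fold higher in the second, against 57% of detected protein-coding genes, and 0 were lower, against 0.176%. The median ratio was 1.56 for the members and 1.60 for all detected genes. The family thus moved as most genes did.

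Dhx16 differed most, at 9.39 TPM in the first and 70.4 TPM in the second, a ratio of 7.43. Nearly all of this lay in the retained_intron transcript Dhx16-202, with 1.41 TPM in the first and 62.4 TPM in the second. Dhx29 had a ratio of 5.13, and its transcript Dhx29-202 went from 0.36 to 5.13 TPM. Dhx35 had a ratio of 4.03, Ddx1 one of 2.77 and Ddx27 one of 2.21. The level of these 5 genes thus depends on the quantification. The smallest ratios among detected members were 1.03 for Ddx4 and Ddx41, 1.06 for Dhx32, and 1.07 for Dhx57, Ddx46 and Ddx28. For Ddx5 the ratio was 1.35, with 816, 461 and 521 TPM in the second quantification, so it led the family in both.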

How the data were processed

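The 3 libraries were taken as 1 group from the labels, and no comparison between groups was possible. The first quantification, a deposited gene table and transcript table per library, held expected counts and TPM, per the file headers. The second, a deposited transcript table, held estimated counts and TPM, which were summed per gene. Assembly mm10 is per the labels, and transcript names match GENCODE M21. The aligner, the quantification tools and the strand setting are not given in the sources used here, so reads of members that overlap a gene on the other strand (Ddx17 with Kdelr3, Dhx57 with Morn2 and others) cannot be told apart. Rows naming no gene (1.28%, 0.427% and 0.383% of expected counts) were left out.

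Expected counts were rounded and scaled by TMM (edgeR 4.0.16), with 0.5 added before log2. The calculation was tested on simulated data with less variation between libraries than these data, which checks the code and not the choice of scaling. With 1 group no test was run. Members with values by library are the 12 highest, the 5 lowest detected and the 12 furthest apart in a library. Added to them are the 8 with the highest share outside the protein_coding class and the 5 largest and 5 smallest quantification ratios. Ddx60 and the extremes of each role list complete the set. The level of 1 interferon-stimulated gene on its own is not reported here. The members and lists were chosen with earlier results of these data known. Alternatives were library totals, DESeq2 1.42.0 size factors, other count minimums and added values, the second quantification, protein-coding TPM only, and leaving out each replicate.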

Additional observations from a re-analysis of the deposited data

How the results depend on the processing

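The count of detected members was 48 under every alternative run except a minimum of 20 counts, which gave 47, and the median ratio of members to detected genes kept within 1 SD of its value. The median level of 5.62 TPM was 29.1 TPM when protein-coding genes alone made up the total, 9.59 in the second quantification and 6.02 over detected members. Leaving out 1 replicate gave 4 to 22 members apart where all libraries gave 19, and library totals gave 10 and the second quantification 11. For all genes, the share apart in at least 1 library was not computed. Members lower in replicate 1 (15) numbered 5 with library totals. Members higher in replicate 1 (2) numbered 1 with a mean of at least 50 counts, 0 in the second quantification, and 1 to 2 without a replicate. Members higher in replicate 2 (9) numbered 3 with library totals, 3 in the second quantification and 3 to 20 without a replicate, and those lower there (1) numbered 2 with no filter on low counts and 1 to 2 without a replicate. Members lower in replicate 3 (0) numbered 1 with library totals and 1 to 3 without a replicate, and those higher (2) numbered 1 with library totals and 1 to 11 without a replicate. Leaving out a replicate compares 1 library with 1. Members with a share over 50% outside the protein_coding class (21) numbered 11 by expected counts. The median share over the detected members, 43.4%, was 57.8% in the second quantification and 19.1% by expected counts. The causes were not tested. Of 70 library differences of named members under other settings, 63 kept 1.5-fold, 7 fell under it and 0 reversed. Settings that change only the count minimum cannot alter these values, so the 63 overstate how stable they were. All 7 falls came with library totals or the second quantification. No paired analysis was possible because the libraries form 1 group. Values under 50 counts, such as those of Ddx4, Ddx20 and Ddx59, are limited by depth.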
